A study of Mus musculus with 14 samples.

Results

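The Cyp4a genes encode cytochrome P450 enzymes of the CYP4A family, and 6 of them, Cyp4a10, Cyp4a14, Cyp4a31, Cyp4a32, Cyp4a12a and Cyp4a12b, were examined in mouse liver by RNA sequencing. They were chosen by name, and the estimated counts of all transcripts of each gene were summed in each library. They are 6 of 24970 genes with a count, and all 6 passed the filter on low counts that left 13127 genes for testing. In the livers of mice that received a brown fat pre-adipocyte transplant, Cyp4a12b was higher than in mice with an empty scaffold. Its fitted ratio was 3.55. The call was lost when Cyp4a12b was counted as 1 gene with its near-identical copy Cyp4a12a (adjusted p = 0.555, edgeR). Cyp4a12a holds most of the counts of that pair, so the merged fit cannot show whether the separate value of Cyp4a12b is right. Cyp4a10 had a fitted ratio of 1.72 and missed the threshold by a small margin (adjusted p = 0.0504), and the other members did not pass the test.

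CYP4A enzymes place a hydroxyl group on the terminal (omega) carbon of fatty acids in the endoplasmic reticulum. The product can be oxidised to a dicarboxylic acid, activated to its CoA ester and shortened in peroxisomes. Cyp4a10 and Cyp4a14 are among the best known target genes of PPARA, the nuclear receptor that senses fatty acids in hepatocytes, and Cyp4a31 and Cyp4a32 are close relatives of Cyp4a10. The Cyp4a12 copies are known instead for a male-biased level in liver that depends on the pulsed release of growth hormone and on androgen, and their products hydroxylate arachidonic acid as well as fatty acids.

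The study placed silk scaffolds into recipient mice on a high-fat diet. For 6 samples the scaffold carried differentiated pre-adipocytes of the stromal fraction of brown fat (transplant), and for 8 samples, labelled Sham-WT, it was empty (empty scaffold). The high-fat diet is stated for the recipients in general, and no sample is labelled with another diet. Titles of the transplant samples also carry the term "2x", whose meaning is not given, and the strain, sex, age, time after surgery and donors are nowhere given in the sources used here. The titles number the samples either below 100 (3 transplant, 4 empty scaffold) or at 100 or above (3 transplant, 4 empty scaffold), and what these ranges stand for is not given either. Each sample was taken as 1 replicate. The labels do not state that each one comes from its own mouse, so the p-values refer to spread among samples, which may be partly technical.

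All 6 genes lie on chromosome 4 in 1 cluster. In the annotation used, GENCODE M21, the Cyp4a genes from Cyp4a12a onward run in the order Cyp4a12a, the pseudogene Cyp4a30-ps, Cyp4a12b, Cyp4a30b, Cyp4a14, Cyp4a10, Cyp4a31 and Cyp4a32. Of these Cyp4a14 alone is on the minus strand. The pseudogenes Cyp4a28-ps, on the minus strand, and Cyp4a29-ps1 and the coding gene Cyp4a29 are annotated before Cyp4a12a. M21 belongs to an earlier genome build than the one the submitters name, so no coordinates are given. The deposited length of each of the 12 member transcripts was the same as in M21.

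The codons of the loop that holds the haem iron show how alike the members are. The shared stretch of 30 coding bases is given for 1 gene of each type, from the GENCODE M21 transcripts, with the codon of the cysteine that binds the iron in capitals.
Cyp4a10 (the same in Cyp4a31 and Cyp4a32): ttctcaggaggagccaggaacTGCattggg
Cyp4a14: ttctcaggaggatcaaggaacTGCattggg
Cyp4a12a (the same in Cyp4a12b): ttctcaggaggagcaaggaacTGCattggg

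The 6 genes thus held 3 versions of this stretch, and whole coding sequences fell into the same sets. Cyp4a12a and Cyp4a12b were 98.5% identical over 1527 coding bases, with 23 differing bases. Cyp4a10 was 97.2% identical to Cyp4a32 and 96.6% identical to Cyp4a31, and Cyp4a31 and Cyp4a32 were 96.0% identical. Cyp4a14 stood apart from all of them, at 75.5% identity with Cyp4a10 and 75.6% with Cyp4a12a, while Cyp4a10 and Cyp4a12a shared 80.1%.

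How well reads can be assigned to a single gene depends on such differences. Windows of 60 coding bases are given for 3 pairs, each the window with the most differing bases of that pair, with the differing bases in capitals. The pair of Cyp4a12 copies differed at 4 bases in its most different window (coding bases 624 to 683).
Cyp4a12a: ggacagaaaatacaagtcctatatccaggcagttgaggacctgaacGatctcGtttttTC
Cyp4a12b: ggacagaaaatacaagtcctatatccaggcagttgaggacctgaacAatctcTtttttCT
Cyp4a10 and Cyp4a32 differed at 9 bases in theirs (coding bases 200 to 259).
Cyp4a10: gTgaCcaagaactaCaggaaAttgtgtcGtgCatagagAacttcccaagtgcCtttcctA
Cyp4a32: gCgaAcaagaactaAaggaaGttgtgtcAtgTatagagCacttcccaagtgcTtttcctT
Cyp4a10 and Cyp4a14 differed at 28 bases in theirs (coding bases 632 to 691 of Cyp4a10 and 626 to 685 of Cyp4a14).
Cyp4a10: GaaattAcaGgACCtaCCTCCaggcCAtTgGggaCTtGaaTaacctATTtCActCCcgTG
Cyp4a14: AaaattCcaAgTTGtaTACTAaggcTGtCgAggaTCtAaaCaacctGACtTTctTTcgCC

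Cyp4a14 can be told from every other gene almost anywhere along its transcript, since 97.9% of its stretches of 31 bases occurred in no other annotated gene. The share was 66.9% for Cyp4a31, 54.5% for Cyp4a10, 37.8% for Cyp4a12a, 37.1% for Cyp4a12b and 34.7% for Cyp4a32. Cyp4a12b shared 1487 of its 2365 stretches with Cyp4a12a, and Cyp4a32 shared 51.2% of its stretches with Cyp4a10. Reads from a shared stretch were divided by estimation before the counts were deposited, so the separate values of Cyp4a12a and Cyp4a12b, and of Cyp4a10, Cyp4a31 and Cyp4a32, are uncertain in a way that the value of Cyp4a14 is not.

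Total estimated counts lay between 22898793 and 28910968 in the transplant libraries and between 19482580 and 28723928 in the empty scaffold libraries. The tissue label was borne out by hepatocyte markers, whose summed level was 96088 to 149968 counts scaled by library size (CPM) in transplant and 83354 to 149765 in empty scaffold. Of 7 kidney markers, chosen because kidney also expresses Cyp4a genes, none passed the filter on low counts, their summed level was at most 0.57 CPM in any library, and Kap, Slc22a6, Slc12a1 and Umod had no count in any. Over all genes, 990 of 13127 (7.54%) passed an adjusted p of 0.05 in edgeR's quasi-likelihood test with Benjamini-Hochberg adjustment, 435 (3.31%) higher in transplant and 555 (4.23%) lower.

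Levels of different genes were compared per transcript length, in the deposited TPM, a unit that divides counts by transcript length and scales them to a fixed total, summed over each gene. Cyp4a14 was at 544 ± 224 TPM in empty scaffold (SD, n = 8) and 639 ± 389 in transplant (SD, n = 6). Cyp4a10 was at 471 ± 146 and 626 ± 331 TPM in the same groups. These leading members overlapped in both groups, and the ratio of Cyp4a14 to Cyp4a10 was 0.746 to 1.09 in transplant and 0.808 to 1.33 in empty scaffold.

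A wide gap separated these genes from the rest, with no overlap between Cyp4a10 and Cyp4a12a in either group. Cyp4a12a was at 34.3 ± 19.2 TPM in empty scaffold and 30.8 ± 14.2 in transplant, and Cyp4a32 at 30.7 ± 9.17 and 26.5 ± 9.15, so that their ranges overlapped. Cyp4a31 was lower, at 7.63 ± 2.73 and 6.98 ± 3.61 TPM, with no overlap with Cyp4a32. Cyp4a12b was the lowest member, at 1.56 ± 0.592 TPM in empty scaffold, below every value of Cyp4a31 there, and at 4.12 ± 2.66 TPM in transplant, where the ranges overlapped.

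On the TPM scale the median of all tested genes was itself shifted by -0.47 in log2 (transplant against empty scaffold), against -0.02 on the TMM-scaled scale used for the tests. The log2 ratio of mean TPM was 0.41 for Cyp4a10, 0.23 for Cyp4a14 and 1.40 for Cyp4a12b. For Cyp4a31, Cyp4a32 and Cyp4a12a it was -0.13, -0.21 and -0.16, where the TMM-scaled fit gave positive values. Relative to the shift of all genes, the TPM differences were 0.88 for Cyp4a10, 0.70 for Cyp4a14, 0.34 for Cyp4a31, 0.25 for Cyp4a32, 0.31 for Cyp4a12a and 1.87 for Cyp4a12b. Values from here on are CPM on the TMM-scaled library and log2 fold changes from that fit.

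Cyp4a10 (ENSMUSG00000066072), the classic PPARA-induced fatty acid hydroxylase, ranged from 506 to 1901 CPM in transplant with a median of 1278, and from 424 to 943 CPM in empty scaffold with a median of 736. Transplant replicates 1, 2, 3 and 5, at 1243, 1538, 1901 and 1313 CPM, lay above all 8 empty scaffold libraries, whereas replicate 4 at 506 and replicate 6 at 837 lay within their range. The means were 1223 ± 496 (SD, n = 6) and 709.8 ± 171 (SD, n = 8), a log2 fold change of 0.78 ± 0.24 (SE) with an adjusted p of 0.0504 by edgeR's quasi-likelihood test with Benjamini-Hochberg adjustment. Cyp4a10 thus did not pass the threshold of 0.05, which 3.31% of all tested genes passed in the higher direction.

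That call changed when single libraries were left out. Without transplant replicate 4, the lowest of its group, the adjusted p of Cyp4a10 in edgeR's quasi-likelihood test was 0.0180. Without transplant replicate 6 it was 0.0467, and without empty scaffold replicate 7 it was 0.0365. In the other 11 fits that each left out 1 library Cyp4a10 was not called, and over all 14 the log2 fold change lay between 0.61 and 0.94. The adjusted p also depends on how many other genes passed, 138 to 1908 over these fits. The unadjusted p (edgeR) was 0.0039 with all libraries and 0.0035 without empty scaffold replicate 7. Without empty scaffold replicate 1 it was smaller, 0.0029, yet Cyp4a10 was not called (adjusted p = 0.0536).

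Cyp4a14 (ENSMUSG00000028715), the other strongly PPARA-induced member, ranged from 556 to 2461 CPM in transplant with a median of 1682. In empty scaffold it ranged from 562 to 1369 CPM with a median of 962. The same transplant replicates, 1, 2, 3 and 5, stood above every empty scaffold library, at 1597, 2035, 2461 and 1767 CPM, while replicate 4 was below all of them and replicate 6, at 793 CPM, was within their range. The means were 1535 ± 731 and 987 ± 280.2 CPM (SD, n = 6 and 8), with a log2 fold change of 0.64 ± 0.28 and an adjusted p of 0.138 (edgeR). Its 95% interval, not adjusted for the number of genes tested, was 0.09 to 1.18. That includes both a difference near 0 and one above a doubling. Cyp4a14 was called in 0 of the 14 fits that left out 1 library (adjusted p 0.0540 to 0.285, edgeR).

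The libraries ranked in a similar order for both genes. Over the 14 libraries, after the mean of each group was taken off log2 CPM, Cyp4a10 and Cyp4a14 had a Pearson r of 0.95 and a Spearman rho of 0.91, and r was 0.90 without the 2 libraries farthest from the median of Cyp4a10. The sum of the pair was 1061 to 4361 CPM in transplant and 986 to 2311 CPM in empty scaffold. Each library has its own scaling factor, which all its genes share. Differences between the ranges of title numbers were not taken off and remain in these correlations and in those of the other members below. Both genes had a higher mean at 100 or above than below 100 in each group. Cyp4a14 shares few sequence stretches with Cyp4a10, so reads divided between this pair touch a small part of either count.

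Cyp4a31 (ENSMUSG00000028712), a close relative of Cyp4a10, ranged from 8.08 to 23.1 CPM in transplant with a median of 14.4, and from 7.52 to 15.4 CPM in empty scaffold with a median of 11.1. Transplant replicates 2, 3 and 5 lay above all empty scaffold libraries and the others within their range. Its log2 fold change was 0.36 ± 0.21 with an adjusted p of 0.253 (edgeR), and without transplant replicate 3 it was 0.18.

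Cyp4a32 (ENSMUSG00000063929), the last gene of the cluster, ranged from 24.9 to 38.9 CPM in transplant with a median of 32.1. In empty scaffold it ranged from 22.6 to 33.3 CPM with a median of 26.5. Transplant replicates 1, 2 and 3 lay above all empty scaffold libraries, and the log2 fold change was 0.24 ± 0.11 with an adjusted p of 0.159 (edgeR). Within groups Cyp4a31 followed Cyp4a10 with an r of 0.77 over the 14 libraries, and Cyp4a32 with 0.68, and without the 2 farthest libraries these were 0.68 and 0.37. Cyp4a10, Cyp4a31 and Cyp4a32 share stretches of sequence, which such a correlation can reflect, and counted as 1 gene they had a log2 fold change of 0.76 ± 0.23 with an adjusted p of 0.0511 (edgeR).

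**Figure D1:**
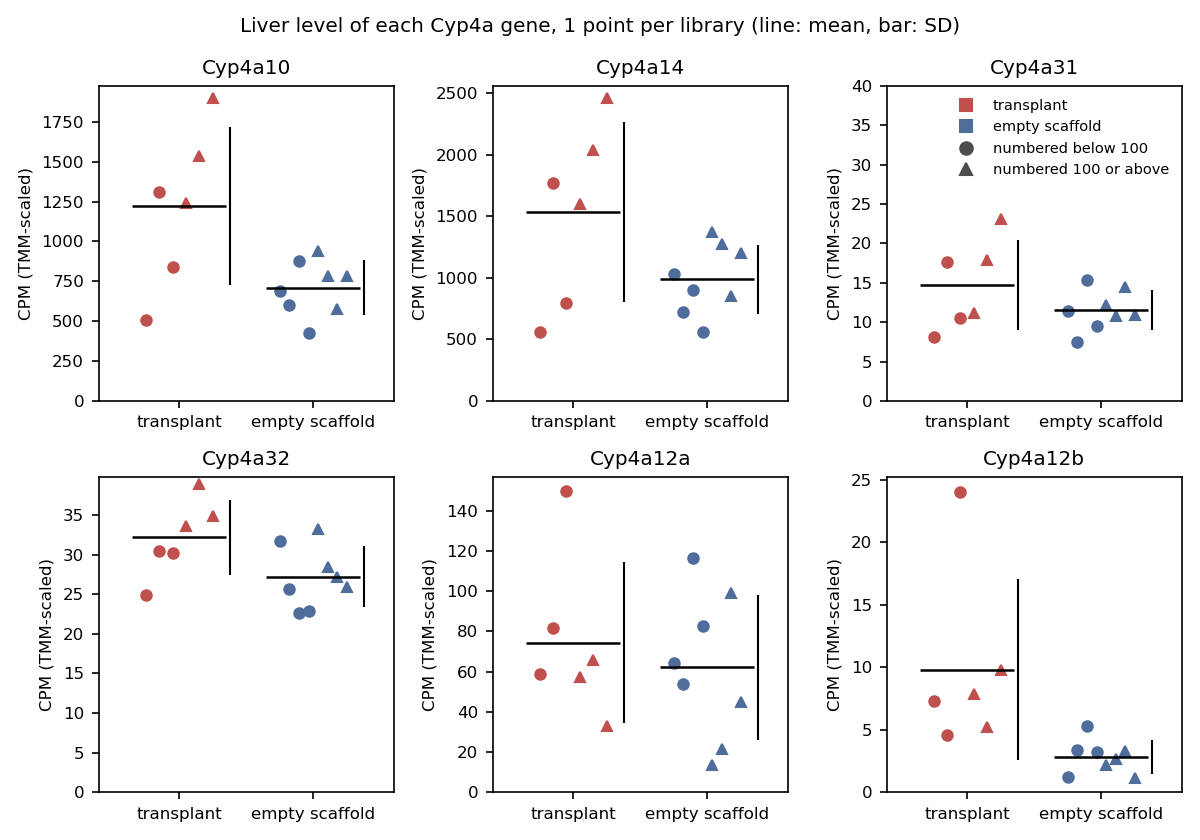
Level of each Cyp4a gene in CPM on the TMM-scaled library (linear axis from 0), 1 point per library, with the marker showing the range of the title number, the line the group mean and the bar the SD (n = 6 transplant, n = 8 empty scaffold). Cyp4a10 and Cyp4a14 each have 4 transplant libraries above all empty scaffold libraries, and Cyp4a12b has 4 with replicate 6 far above the others at 24.04 CPM.

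Cyp4a12a (ENSMUSG00000066071), the major copy of the male-biased pair, ranged from 33.2 to 149.7 CPM in transplant with a median of 62.3, and from 13.8 to 117 CPM in empty scaffold with a median of 59.1. Only transplant replicate 6 lay above all empty scaffold libraries, and 3 of 6 transplant libraries lay above the empty scaffold median. The means were 74.3 ± 40.1 and 62.1 ± 36.1 CPM (SD, n = 6 and 8), and the log2 fold change was 0.26 ± 0.43 with an adjusted p of 0.707 by edgeR's quasi-likelihood test. Its 95% interval of -0.59 to 1.11 leaves the direction undetermined, and without transplant replicate 6 the value was -0.07.

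Cyp4a12b (ENSMUSG00000078597), the minor copy, ranged from 4.59 to 24.04 CPM in transplant with a median of 7.62. In empty scaffold it ranged from 1.15 to 5.32 CPM with a median of 2.94. All 6 transplant libraries lay above the empty scaffold median, and replicates 1, 3, 4 and 6 lay above every empty scaffold library, while replicates 2 and 5, at 5.27 and 4.59 CPM, lay below empty scaffold replicate 7 alone. The means were 9.82 ± 7.21 and 2.81 ± 1.36 CPM (SD, n = 6 and 8).

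Cyp4a12b was higher in transplant by 1.83 ± 0.38 in log2, with an adjusted p of 0.0185 by edgeR's quasi-likelihood test with Benjamini-Hochberg adjustment, and was the 1 member of 6 that was called, where 7.54% of all tested genes were called. It was called in all 14 fits that left out 1 library, with log2 fold changes of 1.33 to 2.01 and adjusted p-values of 0.0132 to 0.0445 in edgeR. The lowest value, 1.33, was obtained without transplant replicate 6. Its estimated counts were 105 to 550.04 in transplant and 27.9 to 97.5 in empty scaffold, far below the 10203 to 44111 of Cyp4a10 in transplant. In none of the 6 members did the groups separate without overlap, which 1.27% of tested genes did.

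The separate value of Cyp4a12b depends in part on how reads were divided between the copies. Counted as 1 gene, Cyp4a12a and Cyp4a12b had a log2 fold change of 0.38 ± 0.41 with an adjusted p of 0.555 in edgeR's quasi-likelihood test, so the call was lost, in a fit that called 7.53% of its genes. The sum of both was 43.0 to 173.7 CPM in transplant with a median of 68.6, and 16.0 to 122 CPM in empty scaffold with a median of 61.4. Cyp4a12b was a small part of that sum, with a median of 11.6% in transplant and 4.05% in empty scaffold, so the merged value mostly follows Cyp4a12a. The merged fit therefore cannot show whether the reads were divided correctly. Whether the copies differ from each other in their response was not tested.

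Cyp4a12b made up 5.31% to 22.9% of the Cyp4a12 counts in transplant, with a median of 11.6%, and 1.83% to 13.6% in empty scaffold, with a median of 4.05%. The highest empty scaffold shares, 13.6% and 11.0%, belonged to replicates 1 and 2, which had the lowest Cyp4a12 sums, 16.0 and 24.4 CPM. Within groups the copies had an r of 0.39 and a rho of 0.47 over 14 libraries, against 0.95 for Cyp4a10 and Cyp4a14. Cyp4a12a and Cyp4a10 had an r of -0.42, and Cyp4a12a and Cyp4a14 an r of -0.53. Both are negative, where all genes of a library share its scaling factor. Group means alone were taken off, so differences between the ranges of title numbers remain in these correlations. In both groups the mean of Cyp4a12a was lower at 100 or above than below 100, whereas those of Cyp4a10 and Cyp4a14 were higher. The part of the ranges in r was not tested. The ratio of Cyp4a10 plus Cyp4a14 to the Cyp4a12 sum was 9.38 to 101 in transplant, with a median of 39.7, and 11.5 to 145 in empty scaffold, with a median of 24.7.

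**Figure D2:**
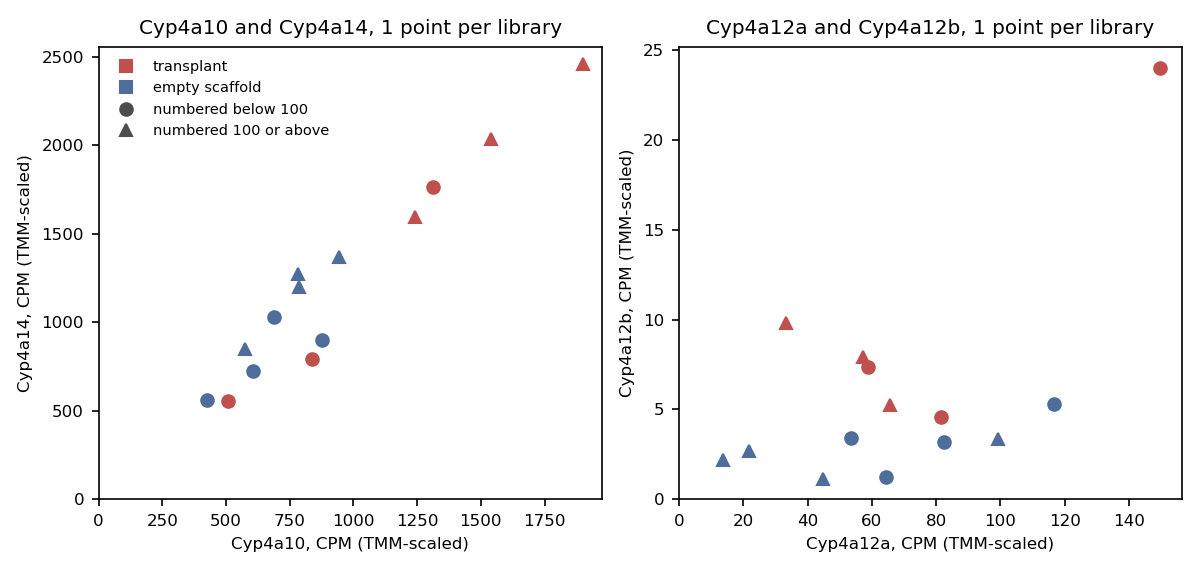
Level of one gene against another in CPM on the TMM-scaled library (linear axes from 0), 1 point per library, coloured by group and shaped by the range of the title number. Cyp4a10 and Cyp4a14 lie close to a line over the 14 libraries, whereas Cyp4a12b is scattered against Cyp4a12a and transplant replicate 6 is the highest in both copies.

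The transplant difference was also compared between the ranges of title numbers. At 100 or above, Cyp4a10 was at 1561 ± 329 CPM in transplant (SD, n = 3) and 772 ± 151 in empty scaffold (SD, n = 4), and below 100 at 885 ± 406 and 648 ± 187. Cyp4a14 was at 2031 ± 432 and 1172 ± 226 CPM at 100 or above, and at 1038 ± 642 and 803 ± 203 below 100. Cyp4a12b was at 7.66 ± 2.29 and 2.33 ± 0.92 CPM at 100 or above, and at 12.0 ± 10.5 and 3.29 ± 1.68 below 100, so its transplant mean exceeded the empty scaffold mean in both ranges. Cyp4a12a was at 52.001 ± 16.85 and 44.9 ± 38.5 CPM at 100 or above, and at 96.7 ± 47.3 and 79.3 ± 27.6 below 100.

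Fitted at 100 or above alone, where 26% of all tested genes were called, Cyp4a10 was higher by 1.01 (adjusted p = 0.0148, edgeR), Cyp4a14 by 0.79 (adjusted p = 0.0187) and Cyp4a12b by 1.72 (adjusted p = 0.0152). Cyp4a31, Cyp4a32 and Cyp4a12a were not called there, with values of 0.52, 0.32 and 0.21.

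Fitted below 100 alone, where 0.0231% of tested genes were called, the log2 fold changes were 0.45 for Cyp4a10, 0.37 for Cyp4a14 and 1.90 for Cyp4a12b, with adjusted p-values of 0.718, 0.823 and 0.497 in edgeR. The difference between the ranges was tested as an interaction. It was 0.56 ± 0.41 for Cyp4a10 (adjusted p = 0.491), 0.42 ± 0.46 for Cyp4a14 (adjusted p = 0.667), 0.37 ± 0.41 for Cyp4a31 (adjusted p = 0.675), 0.17 ± 0.19 for Cyp4a32 (adjusted p = 0.670), -0.074 ± 0.86 for Cyp4a12a (adjusted p = 0.976) and -0.17 ± 0.84 for Cyp4a12b (adjusted p = 0.937) in edgeR's quasi-likelihood test, and for Cyp4a32 it was -0.045 with length and GC trends removed. In that test 0 of 13127 genes (0%) passed the adjusted threshold, while 2275 had an unadjusted p under 0.05. With the range as a covariate, where 19.7% of tested genes were called, Cyp4a10 was called (0.74, adjusted p = 0.0260, edgeR), and Cyp4a14 was not (0.58, adjusted p = 0.0713).

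Under other settings Cyp4a10 passed or missed the threshold. Cyp4a12b passed except in samples numbered below 100 alone (adjusted p = 0.497, edgeR) and with the copies counted as 1 gene (adjusted p = 0.555, edgeR). Cyp4a10 was called with DESeq2 (0.80, adjusted p = 0.0136, where 15% of tested genes were called) and with size factors in place of TMM (0.80, adjusted p = 0.0491, edgeR, 7.13% called). It was not called with the length and GC trends removed (0.77, adjusted p = 0.0778, edgeR, 4.7% called). Cyp4a12b was called with DESeq2 (1.82, adjusted p = 0.0015), with the trends removed (1.86, adjusted p = 0.0338, edgeR) and with library totals alone (1.61, adjusted p = 0.0113, edgeR, 22% called). It was also called in edgeR with no filter on low counts (2.68% called), with the effective length offset (2.4% called) and with the trends removed and the range as a covariate (8.9% called), and in limma (6.8% called), settings in which Cyp4a10 was not called. On library totals alone the median of all genes moved to -0.25, and Cyp4a10, Cyp4a14, Cyp4a32 and Cyp4a12a were at 0.58, 0.42, 0.01 and 0.04.

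**Figure D3:**
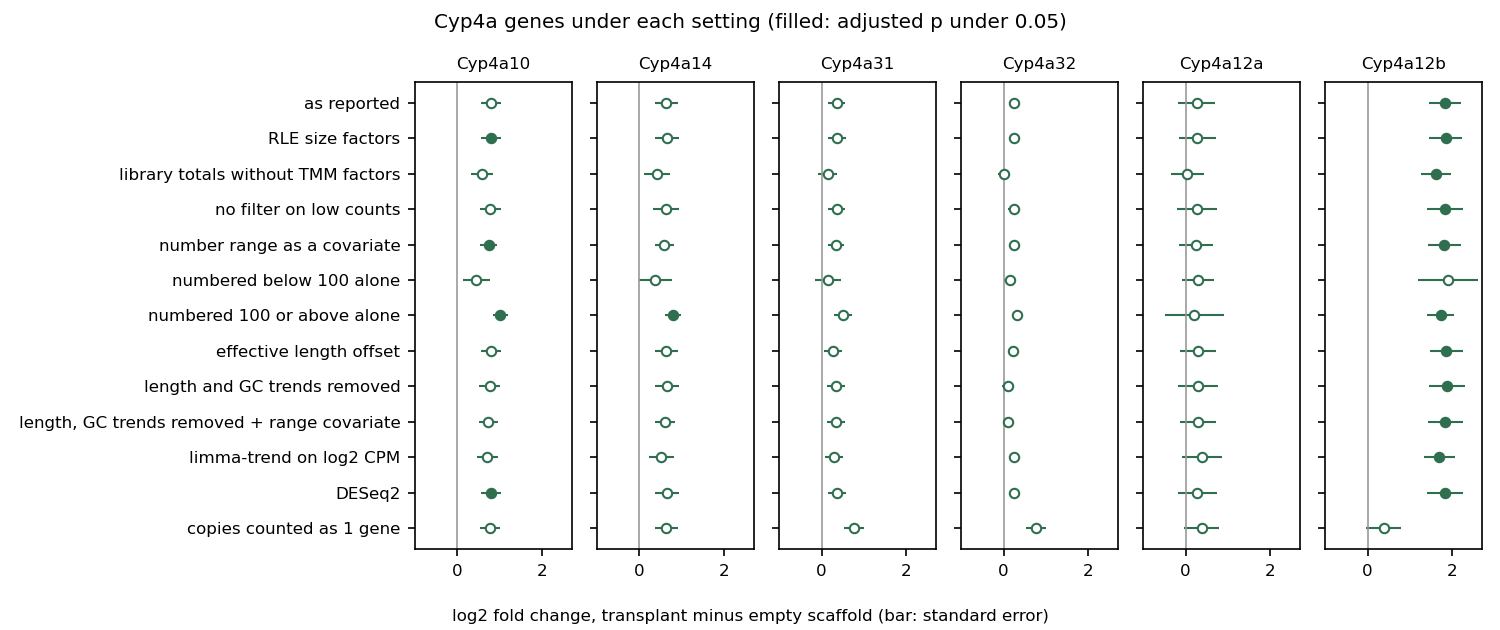
Log2 fold change of each Cyp4a gene, transplant minus empty scaffold, under each setting (horizontal axis; bars are standard errors, filled points have an adjusted p under 0.05). Cyp4a12b stays to the right of the other members except where both Cyp4a12 copies are counted as 1 gene, at 0.38, and Cyp4a10 lies close to the threshold, with a value of 0.78 as reported.

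Genes whose pattern over the libraries was most like that of a member were ranked by Pearson r of group-centred log2 CPM over 14 libraries. Differences between the ranges of title numbers remain in these values. For Cyp4a10 they included Retsat (0.93), a retinol saturase that is itself a PPARA target, Fbxo31 (0.91), the epoxygenase Cyp2j5 (0.89) and the aldehyde dehydrogenase Aldh9a1 (0.88). For Cyp4a14 they included Chp1 (0.92), the peroxisomal lyase Hacl1 (0.91) and the cytokine receptor Lifr (0.91). For Cyp4a12a they were Pus7l (0.88), Lzts2 (0.85), Cd276 (0.85), Zfp64 (0.84) and Clmp (0.84), and the same 5 genes led for the sum of both Cyp4a12 copies. Of these genes Fbxo31 was called in its own comparison, at 0.67 with an adjusted p of 0.013 (edgeR).

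Among 14 other Cyp4 genes, 8 were tested and 1 was called lower, where 4.23% of all tested genes were. With DESeq2, and in edgeR with the number range as a covariate, 3 were higher and 1 lower, in fits that called 15% and 19.7% of all tested genes. Cyp4f16, of the Cyp4f subfamily that hydroxylates longer acids and eicosanoids, fell by 0.77 ± 0.23 in log2 (adjusted p = 0.0472, edgeR), a call that held in 3 of the 14 fits without 1 library. Cyp4f14 was at 0.52 ± 0.18 (adjusted p = 0.0699) and Cyp4v3 at 0.17 ± 0.10 (adjusted p = 0.236). The median log2 fold change of these 8 genes was 0.15, against -0.02 over all tested genes and 0.50 over the 6 Cyp4a members.

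None of the 4 genes for electron donors of P450 enzymes was called, where 7.54% of all tested genes were. With DESeq2, and in edgeR with the number range as a covariate, 2 were higher and 0 lower, in fits that called 15% and 19.7%. These were Por and Cyb5a, the latter named after its values were seen. Cyb5a was at 0.44 ± 0.15 as reported (adjusted p = 0.0770, edgeR), and at 0.17 with the length and GC trends removed. Por, the reductase that passes electrons to every microsomal P450, was at 0.51 ± 0.17 (adjusted p = 0.0658, edgeR), and after removal of the length and GC trends it passed, at 0.67 (adjusted p = 0.0313). Of 20 genes that process omega-hydroxylated and dicarboxylic acids, 2 were higher and 0 lower, where 3.31% of all tested genes were higher. With the length and GC trends removed 3 were higher, among them Aldh9a1 (0.32, adjusted p = 0.0432) and Acot4 (0.46, adjusted p = 0.0467), which are named after their values were seen. Slc27a2, which activates very long chain acids, rose from 1560.5 ± 197 to 2035 ± 212 CPM (0.38 ± 0.11, adjusted p = 0.0422), called in 3 of the 14 fits without 1 library. Acot8, a peroxisomal thioesterase, rose by 0.41 ± 0.09 (adjusted p = 0.0216), and was at 0.29 with an adjusted p of 0.110 when the trends were removed. Aldh3a2, the aldehyde dehydrogenase of this route, was at -0.02 ± 0.09 (adjusted p = 0.925), and at 0.09 with the trends removed.

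Of 40 other PPARA target genes, 8 of which are also among the 20 just described, 3 were higher and 0 lower, a share of 7.5% against 3.31% of all tested genes in that direction, and the median of the list was 0.20. Acot1, a cytosolic acyl-CoA thioesterase, rose from 58.3 ± 17.3 to 110 ± 44.4 CPM (0.92 ± 0.24, adjusted p = 0.0368, edgeR), called in 7 of the 14 fits without 1 library, and with the trends removed it was at 0.82 with an adjusted p of 0.110. Eci2, an enoyl-CoA isomerase, rose by 0.46 ± 0.10 (adjusted p = 0.0216), and was at 0.29 with an adjusted p of 0.0640 without the trends. Slc25a20, the carnitine carrier of mitochondria, rose by 0.42 ± 0.11 (adjusted p = 0.0321) and was called without the trends as well, at 0.38, and in 8 of the 14 fits without 1 library.

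The log2 fold change was positive for 31 of the 40, where it was positive for 6180 of all 13127 tested genes and for 8 of 9 hepatocyte markers. The number called depended on the fit. With the number range as a covariate 10 were higher, and with DESeq2 9 were, in fits that called 19.7% and 15% of all tested genes. On library totals alone 0 were higher and 2 lower, in a fit that called 22% of all tested genes, nearly all of them lower.

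Most of the PPARA targets named whatever their result did not pass the test in edgeR. The bifunctional peroxisomal enzyme Ehhadh was at 0.08 ± 0.16 (adjusted p = 0.767). The mitochondrial regulators Cpt1a and Pdk4 were at -0.16 ± 0.10 and -0.26 ± 0.25, the pantetheinase Vnn1 at 0.17 ± 0.12 (0.047 without transplant replicate 3), and the hormone gene Fgf21 at 0.03 ± 0.38. The lipid droplet gene Plin2 was at -0.08 ± 0.17 and the lipase inhibitor Angptl4 at 0.36 ± 0.18. For Cpt1a and Fgf21 the sign was the opposite with the length and GC trends removed, and for Ehhadh, Vnn1 and Fgf21 on library totals alone.

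Ppara itself was at 65.4 ± 27.8 CPM in transplant and 94.4 ± 45.2 in empty scaffold (-0.53 ± 0.33, adjusted p = 0.289, edgeR), and its partner Rxra at -0.21 ± 0.15 (adjusted p = 0.363), at 0.13 with the trends removed. With effective lengths as an offset Ppara was at 0.24, and in samples numbered 100 or above alone it was called lower, at -0.68 with an adjusted p of 0.0409. Of 14 regulators of this pathway 1 was called, a share of 7.14%, where 7.54% of all tested genes were called. Pparg, the receptor of fat storage, fell by 0.46 ± 0.11 (adjusted p = 0.0240, edgeR).

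The Cyp4a12 copies were set beside genes of the growth hormone axis and other male-biased liver genes. Of 12 tested genes of the axis, 3 were higher and 0 lower, where 3.31% of all tested genes were higher. With the number range as a covariate 4 were higher and 2 lower, and with DESeq2 5 were higher and 1 lower. Those fits called 19.7% and 15% of all tested genes. On library totals alone 2 were higher and 4 lower, in a fit that called 22% of all tested genes, 117 higher and 2767 lower. Socs2, a feedback inhibitor induced by growth hormone through STAT5, rose from 5.78 ± 2.20 to 15.0 ± 6.78 CPM, with an adjusted p of 0.0185 (edgeR). Cish, a second inhibitor of that kind, rose by 2.01 ± 0.47 (adjusted p = 0.0285), called in 9 of the 14 fits without 1 library, and the transcription factor gene Onecut1 by 1.34 ± 0.39 (adjusted p = 0.0487), called in 3 of them.

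The receptor and its effectors did not pass the test in the fit as reported. Ghr, the growth hormone receptor, was at 0.17 ± 0.09 (adjusted p = 0.227, edgeR), and at -0.05 on library totals alone. Stat5b, the main signal transducer, was at -0.30 ± 0.12 (adjusted p = 0.113), and at 0.03 with the trends removed. With the number range as a covariate Stat5b was called lower, at -0.30 (adjusted p = 0.0489, edgeR). Bcl6, a repressor that opposes STAT5, was at -0.64 ± 0.58 (adjusted p = 0.472), and at -1.37 without transplant replicate 6. Igf1 was at 0.42 ± 0.13 (adjusted p = 0.0546). It was called higher with the covariate (0.42, adjusted p = 0.0216, edgeR) and with DESeq2 (0.44, adjusted p = 0.0223).

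Among other male-biased genes, 8 of 16 tested were higher and 0 lower, where 3.31% of all tested genes were higher, with a median of 0.72. Hsd3b5, a steroid dehydrogenase, rose by 4.79 ± 0.68 (adjusted p = 0.0133, edgeR), the organic anion transporter Slco1a1 by 2.40 ± 0.39 (adjusted p = 0.0133) and the oxysterol hydroxylase Cyp7b1 by 0.90 ± 0.17 (adjusted p = 0.0144). The urinary protein gene Mup3 rose by 1.05 ± 0.20, the glucuronosyltransferase Ugt2b1 by 0.55 ± 0.11 and the hydrolase Nudt7 by 0.59 ± 0.13, the last not called without the length and GC trends. The elongase Elovl3 was at 0.86 ± 0.27 (adjusted p = 0.0595). The log2 fold change of Cyp4a12b, 1.83, lay between those of Slco1a1 and Mup3, whereas that of Cyp4a12a, 0.26, lay below those of all 6 called genes named here. Of 11 tested female-biased genes 1 was called lower, where 4.23% of all tested genes were lower. This was Cyp2a4, a steroid hydroxylase, which fell by 1.55 ± 0.37 (adjusted p = 0.0297, edgeR). The median of the list was -0.29, with 5 of the 11 positive. With the trends removed that median was -0.11 and 2 genes were called lower. These lists were picked with earlier results of these data known, and their direction is not independent evidence.

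**Figure D4:**
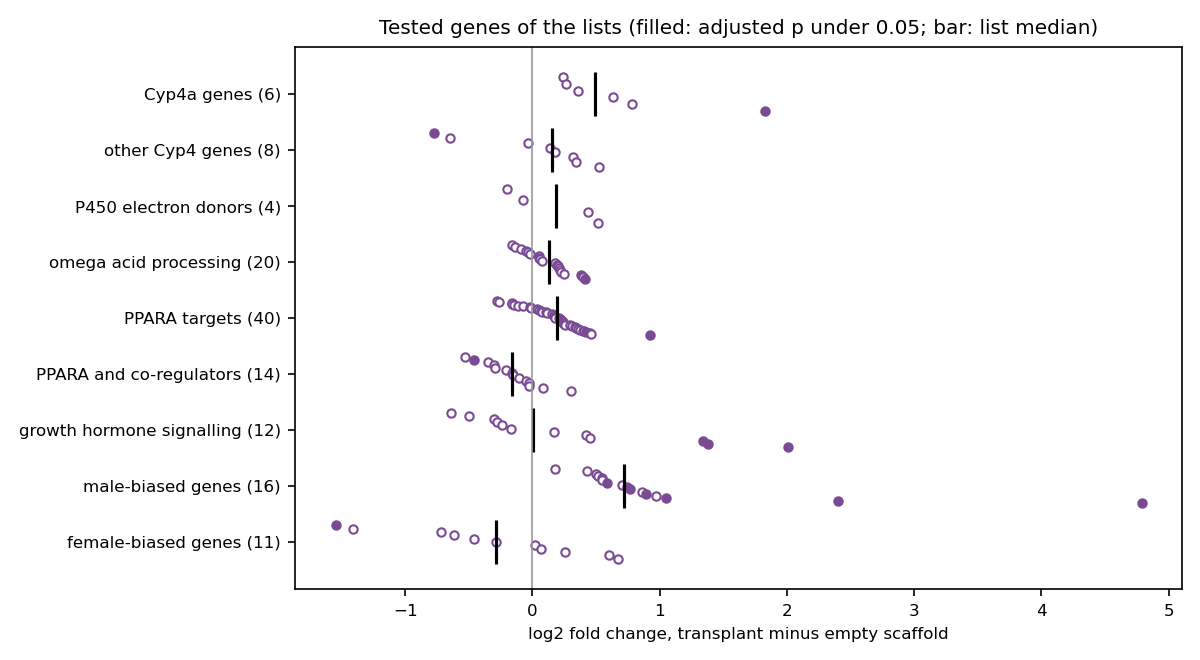
Log2 fold change of each tested gene of the lists, transplant minus empty scaffold, 1 point per gene, with a bar at the list median and filled points for an adjusted p under 0.05. The other male-biased genes have the highest median of these lists, 0.72, with 8 filled points, whereas the PPARA targets lie around a median of 0.20 with 3.

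Markers of some other cell types differed between the groups. None of 8 cholangiocyte markers, 6 T, NK and B cell markers and 2 adipocyte markers tested was called. Of 12 Kupffer cell markers 5 were lower and 0 higher, where 4.23% of all tested genes were lower, with a summed level of 159 to 239 CPM in transplant and 203 to 473 in empty scaffold. Of 10 endothelial markers 2 were lower (103 to 154 and 134 to 221 CPM), and of 10 stellate cell markers 4 were lower (134 to 256 and 166 to 378 CPM). With the trends removed 6 Kupffer cell markers were lower, and none of the endothelial or stellate markers. The neutrophil receptor gene Csf3r was lower, 1 of 2 tested neutrophil markers, in 5 of the 14 fits without 1 library and not with the trends removed (adjusted p = 0.0705, edgeR). Its level was low, at 0.43 CPM in transplant and 0.96 in empty scaffold. The other neutrophil marker, S100a9, went the other way without being called (0.21, adjusted p = 0.788, edgeR). None of 9 hepatocyte markers was called, but 8 were positive, with a median of 0.28, where 6180 of all 13127 tested genes were positive. With the number range as a covariate 3 hepatocyte markers were higher and 0 lower, and with DESeq2 2 were higher and 0 lower. Those fits called 19.7% and 15% of all tested genes. On library totals alone 0 were higher and 1 lower, in a fit that called 22%. Of 10 pericentral markers 1 was higher (Cyp27a1, 0.37 ± 0.09, adjusted p = 0.0288, edgeR), where 3.31% of all tested genes were higher. Of 10 periportal markers 1 was higher (Arg1, 0.45 ± 0.12, adjusted p = 0.0413, which was 0.0628 without the trends). In these whole livers, fewer cells of a type and less RNA per cell cannot be told apart, and the part of these markers in the Cyp4a values was not tested.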

How the data were processed

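RNA sequencing of 14 mouse liver samples was used, 6 with a transplant and 8 with an empty scaffold. Libraries were made with a stranded mRNA kit from RNA with a RIN above 7, per the labels' protocols. The submitters' processing notes name fastp 0.20, kallisto 0.46.1, DESeq2 1.38 and GRCm39; kallisto's options and the annotation release are nowhere given in the sources used here. The authors deposited, per the file headers, estimated counts and TPM for each transcript, beside its length and effective length. No normalization was applied to the deposited estimated counts. The deposited TPM keep no depth and entered no test. Effective lengths, as deposited, served an alternative offset only.

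Of 128803 transcripts, 120608 (93.6%) matched GENCODE M21, holding 99.4% to 99.5% of each library's estimated counts. Counts were summed per gene, rounded, filtered by group with filterByExpr, and scaled by TMM. Groups were compared with edgeR 4.0.16 (R 4.3.3), by a robust quasi-likelihood F test, two-sided, with Benjamini-Hochberg adjustment over 13127 genes and a threshold of 0.05. Errors of fold changes are the absolute log2 fold change divided by the square root of F. Sequence stretches of 31 bases were compared across all M21 transcripts; the stretch length kallisto used is not given.

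Named genes were the 6 members, the 5 tested genes most like a member, up to 6 called genes of each list, and a set of pathway genes whatever their result, of which some are not reported here. The members, lists and tests were chosen with earlier results of these data known. Alternatives were size factors, no filter, the title number range as a covariate or each range alone, an effective length offset, length and GC trends removed (splines with 4 degrees of freedom), limma 3.58.1, DESeq2 1.42.0, near-identical copies merged, and each library left out in turn.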

Additional observations from a re-analysis of the deposited data

Results flagged for a closer look

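Transplant replicate 6 lay far above the other 5 transplant libraries for Cyp4a12b, at 24.04 CPM where the next library was at 9.82 CPM. The same library was far above the others for the sum of Cyp4a12a and Cyp4a12b, at 173.7 CPM with the next at 86.1 CPM. These were the 2 such cases among 22 groups of values checked, they come from 1 library, and chance alone marks about 1 in 20 groups in this way. Without this library Cyp4a12b had a log2 fold change of 1.33 and was still called.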

How the results depend on the processing

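No paired analysis was possible because the labels give the groups no shared replicate numbers. The count of genes called, 990 (435 higher, 555 lower), was 2580 with the number range as a covariate (1388 higher, 1192 lower), 3 in samples numbered below 100 alone, 3488 in those at 100 or above (1951 higher, 1537 lower), 315 with the effective length offset, 617 with length and GC trends removed (360 higher, 257 lower), 1168 with the trends removed and the range as a covariate (740 higher, 428 lower), 1965 with DESeq2 and 2884 with library totals alone (117 higher, 2767 lower), the last added after seeing the data. Leaving out 1 library gave 138 (without transplant replicate 1) to 1908 (without empty scaffold replicate 7). Cyp4a10, not called as reported, was called at 0.80 with size factors, 0.74 with the covariate, 1.01 at 100 or above and 0.80 with DESeq2, with a range of 0.61 to 0.94 over libraries left out. Cyp4a14 was called at 100 or above (0.79). Cyp4a12b was not called below 100 (1.90) or with the copies merged (0.38), and Cyp4a12a spanned -0.068 to 0.45 over libraries left out. Signs turned for several genes that were not called as reported. With trends removed these were Stat5b (0.027), Aldh3a2 (0.085), Fgf21 (-0.070), Cpt1a (0.095), Rxra (0.13) and the Cyp4a32 interaction (-0.045), and with the covariate besides, Cpt1a (0.095), Stat5b (0.024), Aldh3a2 (0.085), Rxra (0.13) and Fgf21 (-0.025). On library totals they were Ghr (-0.054), Fgf21 (-0.17), Vnn1 (-0.052), Ehhadh (-0.15) and Cyp4v3 (-0.057), below 100 Fgf21 (-0.50), Aldh3a2 (0.046), Rxra (0.11) and Ehhadh (-0.059), at 100 or above Plin2 (0.16), and with effective lengths Ppara (0.24). Leaving out 1 library gave -0.091 to 0.15 for Ehhadh, -0.14 to 0.29 for Fgf21, -0.14 to 0.0086 for Plin2 and -0.058 to 0.0103 for Aldh3a2. The cause was not tested. Among the 6 members Cyp4a12b had the fewest reads, 27.9 to 97.5 estimated counts in empty scaffold.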

Other observations

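The counts of Cyp4a31 were divided between a pair of long transcripts, with 36.1% to 63.2% of the gene's count on one and 36.2% to 59.2% on the other over the 14 libraries. In Cyp4a10, 1 transcript held 94.7% to 99.4% of the count. In Cyp4a32, the coding transcript held 83.6% to 93.8% and a processed transcript the rest. The genes most like Cyp4a12b in group-centred log2 CPM over 14 libraries, looked up after its values were seen, were C6 (0.88), Dnaja4 (0.86), Tnnt1 (0.82), Mcts2 (0.78) and Abcg2 (0.76), and none of these is among the 5 genes most like Cyp4a12a.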
